A study of Mus musculus with 6 samples.

Results

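The genes described here are 10 mouse genes of lytic and inflammatory cell death, chosen by symbol from the 24062 rows of the count table. They are the inflammasome genes Nlrp3, Pycard, Casp1, Casp4, Gsdmd and Il18 and the necroptosis genes Tnfrsf1a, Ripk1, Ripk3 and Mlkl, and all 10 have a row. By RNA-seq, whole rd10 retinas were set against whole wild-type (WT) retinas, with C57Bl6/J as the strain label of both groups, both untreated as far as the labels say and both at postnatal day 30. The rd10 allele is a missense change in Pde6b, a rod phosphodiesterase gene, and the rods of these mice degenerate in the weeks after birth. A library was made from 2 frozen retinas, and there were 3 libraries per group. Whether they stem from separate animals is not said in the labels, and the p-values then measure only the spread between these libraries, which may be technical.

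An inflammasome is a cytosolic complex in which a sensor such as NLRP3 recruits the adaptor ASC, encoded by Pycard, and through it the protease encoded by Casp1. That protease cleaves gasdermin D, which opens pores in the plasma membrane, and matures interleukins of the IL-1 family, among them the product of Il18; mouse Casp4 encodes the protease long called caspase-11, which senses bacterial lipopolysaccharide and cleaves gasdermin D too. Necroptosis runs from death receptors such as the TNF receptor encoded by Tnfrsf1a through the kinases RIPK1 and RIPK3 to MLKL, which permeabilises the membrane. In the retina, inflammasome genes are best known from microglia and other phagocytes, and both pathways have been studied in models of photoreceptor loss.

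In rd10 retinas 3 of the 10 genes rose, namely Tnfrsf1a (3.01-fold), Pycard (4.22-fold) and Casp1 (11.8-fold), and none fell, in edgeR or under any of the 16 alternatives. Gsdmd, Ripk1 and Il18 were higher throughout the rd10 libraries, without overlap, and missed the threshold. Casp4, Nlrp3, Ripk3 and Mlkl had at most 16 counts in any library and were too sparse to test. A gene was called when its adjusted p was under 0.05 in edgeR's quasi-likelihood test, which was run over the 13905 genes that passed a filter on low counts. Of those, 7.12% were called higher in rd10 and 7.32% lower. Only Il18, Tnfrsf1a and Ripk1 reached the filter's cutoff of 0.777 CPM (counts relative to library size) in WT libraries. Casp1, Pycard and Gsdmd passed through their rd10 libraries alone, so a higher value in rd10 was built into their being tested.

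All 6 tested genes had all 3 rd10 libraries above all 3 WT libraries on CPM scaled by TMM factors, against 17.1% of the tested genes. For Casp1, Pycard and Gsdmd such a gap was favoured by the filter, which they passed through rd10 libraries alone. With the untested genes included, 7 of the 10 had this gap, and the share of 17.1% does not cover untested genes. For Casp4, which is among the 7, the gap is that between 1 count in a WT library and 1 count in an rd10 library.

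**Figure D1:**
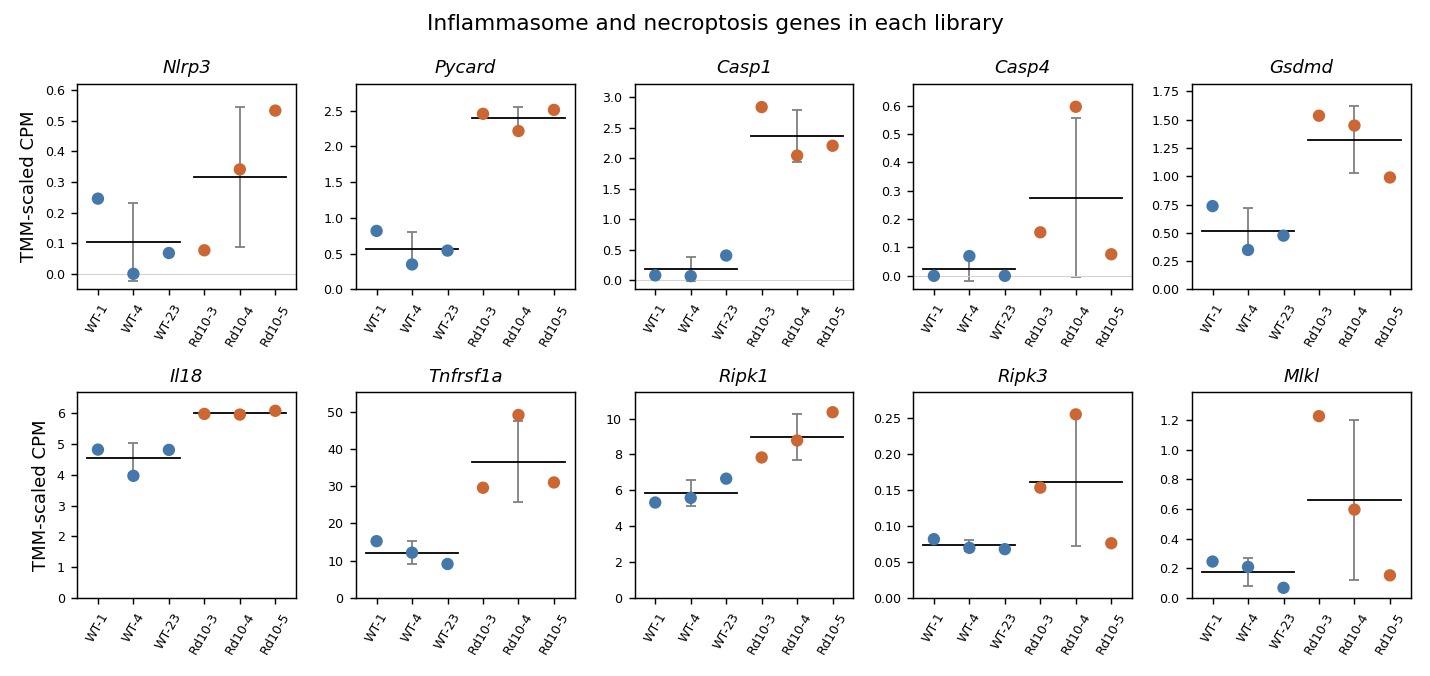
TMM-scaled CPM (y axis, a separate scale in each panel) of the 10 genes in each library (x axis); blue points are WT, orange points rd10, black lines the mean of 3 libraries and grey bars 1 SD. Tnfrsf1a, Pycard, Casp1, Gsdmd, Ripk1 and Il18 show no overlap between groups, while Nlrp3, Ripk3 and Mlkl do, and the Casp4 groups are parted by less than 0.01 CPM.

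The 250 bases before the transcription start of Casp1 and of Pycard are shown because these inflammasome genes were both called and because RefSeq and GENCODE M21 place their starts at the same base. They come from the RefSeq promoter table (GRCm38.p6), in which 9 of the 10 genes were found, all but Gsdmd, and read 5′ to 3′ on the gene's strand, with capitals marking a match to the PU.1 core motif GAGGAA on the opposite strand. The Casp1 stretch lies at chr9:5298267-5298516 on the plus strand and the Pycard stretch at chr7:127993868-127994117 on the minus strand.
Casp1: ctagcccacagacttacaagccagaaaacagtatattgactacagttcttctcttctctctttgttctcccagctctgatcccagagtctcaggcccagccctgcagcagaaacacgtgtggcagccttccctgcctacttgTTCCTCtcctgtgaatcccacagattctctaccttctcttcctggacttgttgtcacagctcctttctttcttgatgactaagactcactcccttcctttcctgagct
Pycard: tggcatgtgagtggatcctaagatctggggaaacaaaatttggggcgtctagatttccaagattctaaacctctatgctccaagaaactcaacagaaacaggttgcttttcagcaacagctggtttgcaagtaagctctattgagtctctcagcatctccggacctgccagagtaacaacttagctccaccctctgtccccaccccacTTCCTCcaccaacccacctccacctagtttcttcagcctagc

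PU.1 is a transcription factor of myeloid cells, and its core motif stood in 3 of the 9 windows at the first start listed (Casp1, Nlrp3 and Pycard) and in 23.1% of 27025 promoter windows of the same length. The match begins 108 bases before the start in Casp1 and 42 bases before it in Pycard. All motifs were searched on both strands. The NF-kB motif, present in 3.75% of all windows, was found in that of Casp4 alone, where overlapping matches begin 93 and 92 bases before the start. The GAS motif TTCNNNGAA, bound by STAT factors and present in 7.18% of windows, was found in that of Tnfrsf1a as TTCCGTGAA, whose letters match on both strands. At the other starts listed for some genes, NF-kB matched for Casp4 and Nlrp3, GAS for Ripk1 and PU.1 for Ripk1. The core of the ISRE, the interferon response element, and the AP-1 motif TGANTCA (3.04% and 6.87% of windows) matched none of the 9 at any start listed. A match describes the letters of a window and does not show that a factor binds there.

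Nlrp3, the sensor, was close to the limit of detection. Its counts were 3 (WT-1), 0 (WT-4) and 1 (WT-23) against 1 (Rd10-3), 4 (Rd10-4) and 7 (Rd10-5), with libraries named as in the count table and kept in this order below. The groups overlap, since Rd10-3 had fewer counts than WT-1. A count of 0 in a library allows up to 3 counts, which in WT-4 is 0.209 CPM. Summed over libraries the scaled ratio of rd10 to WT was 3.27, with an exact 95% interval from 0.991 to 13.9. This interval, like the other intervals and floors, covers counting error only, and reads without molecular identifiers are not independent molecules.

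Pycard, the adaptor that links sensors to the protease, was counted 10, 5 and 8 times in the WT libraries and 32, 26 and 33 times in the rd10 libraries. The lowest rd10 library was more than 2 times as high as the highest WT library, at 2.215 against 0.818 CPM. The WT mean of 0.570 ± 0.236 CPM became 2.39 ± 0.16 CPM in rd10 (SD, n = 3 per group). On the log2 scale the difference was 2.08 ± 0.33 (SE), with an edgeR adjusted p of 0.00534, and it stayed called without any 1 of the libraries (edgeR adjusted p between 0.00249 and 0.0286). In the authors' deposited table Pycard has an FPKM of 0.5 in WT and 2.4 in rd10 and a log2 fold change of 2.08. FPKM is scaled by transcript length and CPM is not, and the CPM per kilobase here was 0.15 in WT and 0.63 in rd10.

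Casp1, which encodes the protease that matures IL-1 family cytokines, was counted 1, 1 and 6 times in WT against 37, 24 and 29 times in rd10. WT-23 held 6 of the 8 WT counts, and every rd10 library had at least 24. The mean was 0.186 ± 0.191 CPM in WT and 2.36 ± 0.42 CPM in rd10 (SD, n = 3 per group). This is a rise of 3.56 ± 0.51 on the log2 scale (SE), at an edgeR adjusted p of 0.00339. The size of this rise rests on WT-23, without which the log2 fold change was 4.83; the edgeR adjusted p was 0.0193 or less without any 1 library.

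For Casp4 the WT libraries held 0, 1 and 0 counts and the rd10 libraries 2, 7 and 1. Rd10-4 held 7 of the 10 rd10 counts, and the other rd10 libraries were at the level of a few reads. The summed ratio was 10.9, with an exact 95% interval from 1.55 to 473. Casp1 and Casp4 are related genes that lie next to each other on chromosome 9, from 5298517 to 5307265 and from 5308828 to 5336783 of the GRCm38 annotation GENCODE M21, both on the plus strand; GRCm38 and mm10 are names for 1 assembly.

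For Gsdmd, whose product forms the pore, WT libraries gave 9, 5 and 7 counts and rd10 libraries 20, 17 and 13. The lowest rd10 library, Rd10-5 at 0.989 CPM, lay above the highest WT library, WT-1 at 0.736 CPM. Its log2 fold change of 1.35 ± 0.38 (SE, n = 3 per group) missed the threshold with an edgeR adjusted p of 0.0508. The call depended on the setting: the adjusted p was 0.0265 without WT-1, 0.0485 with limma voom and 0.0957 with DESeq2, and over all 16 alternatives it ran from 0.0202 to 0.18.

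Il18, a cytokine gene of the IL-1 family, was among the best measured of the 10 and among those that differed least. Counts were 59, 57 and 71 for WT against 78, 70 and 80 for rd10. The rd10 libraries lay between 5.96 and 6.09 CPM and the WT libraries between 3.97 and 4.82 CPM, so the groups do not overlap. The log2 fold change was 0.41 ± 0.18 (SE, n = 3 per group; edgeR adjusted p = 0.173), or 0.65 with unscaled library sizes (adjusted p = 0.0373) and 0.14 with libraries scaled to inner neuron marker genes (adjusted p = 0.62). Il18 overlaps Bco2 by 355 bases on the opposite strand, and Bco2 had between 27 and 39 counts in WT and between 2 and 6 in rd10. Whether the counting used strand is not given in the sources used.

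Tnfrsf1a, the receptor at the head of the necroptosis pathway, had the highest counts of the 10 genes. These were 186, 174 and 134 for WT, and for rd10 they were 385, 576 and 407. Every rd10 library was well above every WT library, and Rd10-4 stood above the other rd10 libraries with 49.1 CPM against 29.6 and 31.0. Mean levels were 12.1 ± 3.1 CPM in WT and 36.5 ± 10.9 CPM in rd10 (SD, n = 3 per group). The rise of 1.59 ± 0.26 on the log2 scale (SE) had an edgeR adjusted p of 0.00571. The call was kept without any 1 of the libraries (edgeR adjusted p between 0.00151 and 0.0336), and without Rd10-4 the value was 1.32. The authors' deposited table gives an FPKM of 12 in WT and 36.2 in rd10 with a log2 fold change of 1.59. These FPKM values are not like for like with CPM, and the CPM per kilobase was 5.63 in WT and 16.9 in rd10.

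Libraries differed in a trend with transcript GC content, and the GC content of Tnfrsf1a was 55.9%. Per 10 percentage points of GC, the slope of centred log2 CPM was 0.354 (WT-1), -0.112 (WT-4) and -0.386 (WT-23), the order of the Tnfrsf1a levels of these libraries. Among rd10 libraries the slope was 0.316 in Rd10-4, where Tnfrsf1a was highest, and -0.0586 and -0.113 in Rd10-3 and Rd10-5, whose Tnfrsf1a levels stood in the opposite order. With this trend removed from each library, Tnfrsf1a rose by 1.52 ± 0.14 (SE; edgeR adjusted p = 2.44e-05), so the rise was about as large and its error smaller.

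Ripk1, the kinase that sits below the receptor and can direct cells to survival or death, was counted 65, 80 and 98 times in WT against 102, 103 and 136 times in rd10. The groups lay close without overlap, with the highest WT library at 6.65 CPM and the lowest rd10 library at 7.83 CPM. The log2 fold change of 0.62 ± 0.19 (SE, n = 3 per group) missed the threshold (edgeR adjusted p = 0.0651). It passed with the GC trend removed (0.0137), with unscaled library sizes (0.0158) and with upper quartile factors (0.0367), and had an adjusted p of 0.245 with inner neuron scaling. The authors' deposited table lists Ripk1 with a log2 fold change of 0.616 and a p-value of 0.00845, and the edgeR p before adjustment was 0.011. Ripk1 overlaps Serpinb6a on the opposite strand by 432 bases, and Serpinb6a had between 157 and 185 counts in WT and between 172 and 256 in rd10. The processed pseudogenes Gm17084, on the same strand, and Gm17083, on the opposite strand, overlap Ripk1 by 511 and 1366 bases. Neither has a row in the count table.

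Ripk3, the kinase that phosphorylates MLKL, had 1 count in each WT library and 2, 3 and 1 in rd10. For Mlkl, the executioner, WT libraries held 3, 3 and 1 counts, and rd10 libraries held 16, 7 and 2. Rd10-3 held 16 of the 25 Mlkl counts in rd10 while Rd10-5 was within the WT range. The summed ratios were 2.18 for Ripk3 (exact 95% interval 0.466 to 13.5) and 3.89 for Mlkl (1.64 to 10.7), and the Mlkl interval does not include the spread between rd10 libraries, which ran from 0.152 to 1.23 CPM. With no filter on low counts the 4 sparse genes had an edgeR adjusted p of 0.169 (Casp4), 0.357 (Nlrp3), 0.527 (Ripk3) and 0.168 (Mlkl).

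Per kilobase of the principal coding transcript in GENCODE M21, the levels of the 10 genes spanned more than 100-fold in both groups. In rd10 the order was Tnfrsf1a (16.9 ± 5.1 CPM per kb), Il18 (8.56 ± 0.09), Ripk1 (2.75 ± 0.39) and Casp1 (1.58 ± 0.28), and each of these 4 lay above the next gene in all 3 libraries (SD, n = 3). Gsdmd (0.739), Pycard (0.63), Mlkl (0.333), Casp4 (0.192), Ripk3 (0.0855) and Nlrp3 (0.0805) followed, each overlapping its neighbour. In WT, Il18 (6.46 ± 0.70 CPM per kb) and Tnfrsf1a (5.63 ± 1.42) overlapped, Ripk1 (1.79 ± 0.22) lay apart from both neighbours, and the remaining 7 genes were at 0.29 CPM per kb or less. Casp1 stood sixth in WT, within the range of its neighbours. The place of Pycard in both orders rests on an annotated transcript of 3800 bases, and a shorter one would raise its level in proportion. In the authors' deposited table the gene spans only 127992103 to 127993867 on chromosome 7, less than the length of that transcript. GENCODE M21 has it from 127989708 to 127993867. The deposited FPKM in rd10 was 2.4 for Pycard and 2.8 for Ripk1, so the low place of Pycard is not secure. For Tnfrsf1a the deposited FPKM, 12 in WT and 36.2 in rd10, was also above the CPM per kb here. Its place beside Il18 in WT is therefore not secure either.

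Beside these genes, 19 of 20 microglial marker genes rose, against 7.12% of all tested genes. The median log2 fold change of the 20 markers was 1.83. Their summed level was 168 to 180 CPM in WT and 532 to 667 CPM in rd10. Of 16 Müller glia markers 12 rose, with a median of 0.71, and all 16 rod markers fell, from a sum of between 114000 and 133000 CPM to one between 23100 and 33800 CPM. The 19 markers of monocytes, neutrophils and lymphocytes in the table summed to 2.21 to 3.55 CPM in WT and 4.17 to 5.22 in rd10. None of the 2 tested was called, and the neutrophil genes Mpo, Elane and Camp were at 0 in every library. For 5 of the 19, against 17.1% of all tested genes, every rd10 library lay above every WT library. They were the tested Cd8a and the untested Ccr2, Plac8, Cd3g and Nkg7. These untested genes never exceeded 13 counts in a library, and S100a8 was lower throughout rd10. The part of these cell types in the rises of Casp1, Pycard and Tnfrsf1a was not tested. In whole retinas, more cells of a type and more RNA per cell cannot be told apart, nor can fewer cells and less RNA per cell.

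**Figure D2:**
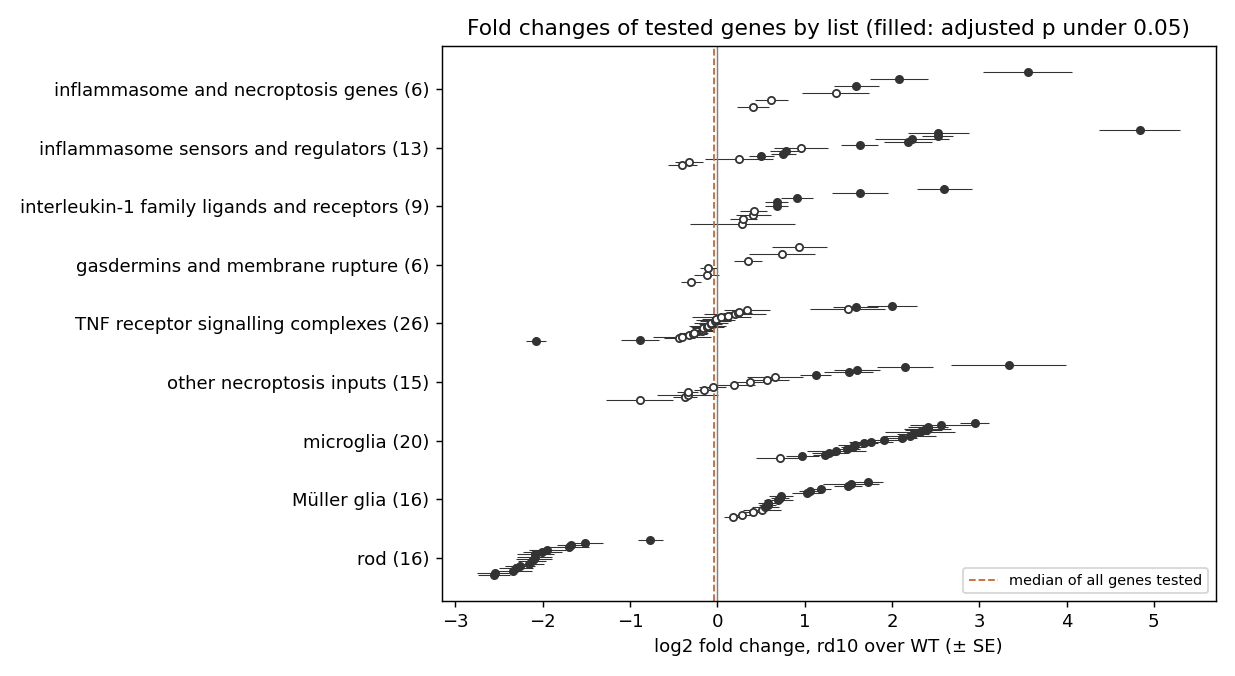
Log2 fold change of rd10 over WT with its SE (x axis) for each tested gene of each list (y axis, with the number tested); filled points had an edgeR adjusted p under 0.05, and the dashed line is the median of all genes tested. The inflammasome sensor list reaches 4.84 with Ifi204, the TNF receptor complexes lie around 0 with Tnfaip3 far to the left at -2.08, and the rod markers all lie below 0.

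Of 23 other genes of inflammasome sensors and regulators, 13 were tested, 9 rose and none fell. Their median log2 fold change was 0.96, against -0.04 for all genes tested, of which 7.12% were called higher. This list, like the other lists, was chosen with earlier results of these data known. Among the 13, Ifi204, P2rx7, Naip2 and Casp12 passed the filter through rd10 libraries alone, so that a higher value in rd10 was built into their being tested. Their log2 fold changes, from 2.19 to 4.84, are part of the median of 0.96 and raise it. The other 9 passed in both groups, and 5 of them were called higher, against 864 of all 13705 genes that passed in both groups. Ifi204, a DNA-sensor family gene with near-identical relatives whose reads counting could split, was counted 1, 1 and 2 times in WT against 54, 30 and 31 times in rd10 and rose by 4.84 ± 0.47 on the log2 scale. Gbp2 and Gbp5, interferon-induced GTPases that act on bacteria and inflammasomes, rose by 2.53 ± 0.18 and 1.63 ± 0.22. P2rx7, the ATP-gated channel that triggers NLRP3, rose by 2.19 ± 0.27, from 9, 8 and 12 counts to 36, 42 and 44.

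Naip2, a sensor partner for bacterial secretion proteins and 1 of several similar genes, was tested through its rd10 libraries alone and had a log2 fold change of 2.53 ± 0.35 (SE, 3 libraries a group). Txnip, a thioredoxin-binding protein gene, rose by 0.75 ± 0.14 at an edgeR adjusted p of 0.0111. Casp12, P2rx4 and Panx1 complete the 9. The calls of Txnip without Rd10-5 (edgeR adjusted p = 0.0505) and of Casp12 without Rd10-3 (0.0552) were lost. That of P2rx4 needed each rd10 library and WT-4 (edgeR adjusted p between 0.062 and 0.101 when 1 of these was left out). The Panx1 call was lost whichever library was left out (edgeR adjusted p between 0.0573 and 0.196). Nek7, which NLRP3 needs for assembly, and Brcc3, its deubiquitinase, were the most abundant uncalled genes, with log2 fold changes of -0.40 ± 0.17 and -0.32 ± 0.16.

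Of 16 genes of the IL-1 family and its receptors, 9 were tested and 5 rose, against 7.12% of all tested genes, with a median of 0.68. The largest of these rises was that of Il18bp, whose product binds and blocks the product of Il18, from 13, 10 and 16 counts in WT to 94, 71 and 54 in rd10. This rise of 2.60 ± 0.31 (log2 scale, SE, edgeR adjusted p = 0.00154) stood beside 0.41 for Il18 itself. The receptor genes Il1r1 and Il1rap rose by 0.91 ± 0.19 and 0.68 ± 0.13, and the kinase genes Irak1 and Irak4 by 0.68 ± 0.13 and 1.63 ± 0.32. Without Rd10-3 all 4 of these calls were lost (edgeR adjusted p = 0.0672, 0.0736, 0.0745 and 0.055), and so, without WT-4, were those of Il1r1 (0.0592) and Irak1 (0.0668), and without Rd10-4 that of Il1r1 (0.0526). With inner neuron scaling the calls of Il1r1, Il1rap, Irak1, Txnip, P2rx4 and Panx1 were lost as well.

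Il33, an alarmin gene, and Irak2 were the most abundant uncalled members of that list (log2 fold change 0.42 ± 0.15 and 0.41 ± 0.20). Il1b, named after its values were seen because its product is the best known substrate of caspase-1, had 0 counts in every WT library, which allows up to 0.0726 CPM for the group, and 0, 0 and 2 counts in rd10. Of 14 other gasdermin, membrane rupture and membrane repair genes, 6 were tested (Ninj2 through rd10 libraries alone), with a median of 0.12, and none was called by edgeR, with 2 at an unadjusted p under 0.05; voom and DESeq2 gave 0 and 0 calls. The repair genes Chmp4b and Chmp2a, the most abundant, had -0.10 ± 0.10 and -0.30 ± 0.12. Dfna5, which encodes gasdermin E and was named after its values were seen, was counted 103, 140 and 125 times in WT against 149, 120 and 162 times in rd10 and also missed the threshold (0.35 ± 0.16 on the log2 scale, edgeR adjusted p = 0.183), and 5 other gasdermin genes were at 0 in every library.

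Of 29 genes of the TNF receptor complexes, 26 were tested, 2 rose and 2 fell, with a median of -0.07. These counts are near the shares of all tested genes, of which 7.12% were called higher and 7.32% lower. The uncalled Birc3 passed the filter through rd10 libraries alone. Tnfaip3, which encodes A20, an enzyme that restrains NF-kB and necroptosis, fell by 2.08 ± 0.12 on the log2 scale (SE), at an edgeR adjusted p of 0.000271. WT libraries held 3482, 4068 and 4653 counts and rd10 libraries 835, 830 and 980, an abundance of 294.5 ± 18.2 against 69.8 ± 5.3 CPM. Tab3, an adaptor of the kinase TAK1, fell by 0.89 ± 0.22 (adjusted p = 0.0311), a call lost on leaving out any library but WT-1 (edgeR adjusted p between 0.0531 and 0.11). The log2 fold changes of Tnfaip3 and Tab3 both lay within the wide range of the 16 rod markers, from -2.56 to -0.77. The part of rods in these falls was not tested.

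The other TNF receptor, Tnfrsf1b, rose by 2.00 ± 0.28, from 35, 19 and 35 counts to 101, 117 and 111. Casp8, the protease that cleaves RIPK1 and RIPK3 and thereby holds back necroptosis, rose by 1.58 ± 0.26, from 15, 15 and 19 counts to 41, 37 and 58 (edgeR adjusted p = 0.0033 for Tnfrsf1b and 0.00584 for Casp8; SE, n = 3 per group). The deubiquitinase gene Cyld (-0.44 ± 0.18) and the adaptor gene Tab2 (-0.17 ± 0.13) were the most abundant uncalled members. Tnf, the ligand, was named after its values were seen; its counts were 0 throughout WT and 1, 0 and 1 in the rd10 libraries.

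Of 16 genes of other necroptosis inputs, 15 were tested and 5 rose, against 7.12% of all tested genes, with a median of 0.38. Zbp1 passed the filter through rd10 libraries alone. Of the 14 genes that passed in both groups 4 were called higher, against 864 of all 13705 such genes. Tlr3 and Tlr4, receptors for double-stranded RNA and for lipopolysaccharide, rose by 1.13 ± 0.18 and 2.15 ± 0.33, and the RNA-activated kinase gene Eif2ak2 by 1.60 ± 0.27. Fas, a death receptor gene, rose by 1.504 ± 0.277 (SE) on the log2 scale, from 11, 9 and 10 counts to 25, 25 and 29, at an edgeR adjusted p of 0.00972. Zbp1, a nucleic acid sensor that binds RIPK3, was counted 4, 2 and 1 times in WT against 40, 15 and 14 times in rd10. Its log2 fold change was 3.34 ± 0.66, and the call, of a gene tested through rd10 alone, was lost without WT-4 (edgeR adjusted p = 0.065). Ppm1b and Stub1, the most abundant uncalled members, had -0.37 ± 0.14 and 0.19 ± 0.24.

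Profiles over the 6 libraries were compared for Tnfrsf1a, Il18 and Ripk1, the 3 genes averaging 2 CPM or more, by the root mean square distance of centred log2 CPM among 12143 candidate genes. Nearest to Tnfrsf1a was Cela1 (distance 0.1, log2 fold change 1.60), nearest to Il18 was Slc22a23 (0.0205, log2 fold change 0.38), and nearest to Ripk1 was Slc10a3 (0.0896, log2 fold change 0.68). The distances rest on 6 libraries that share the genotype difference and the GC trend.

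**Figure D3:**
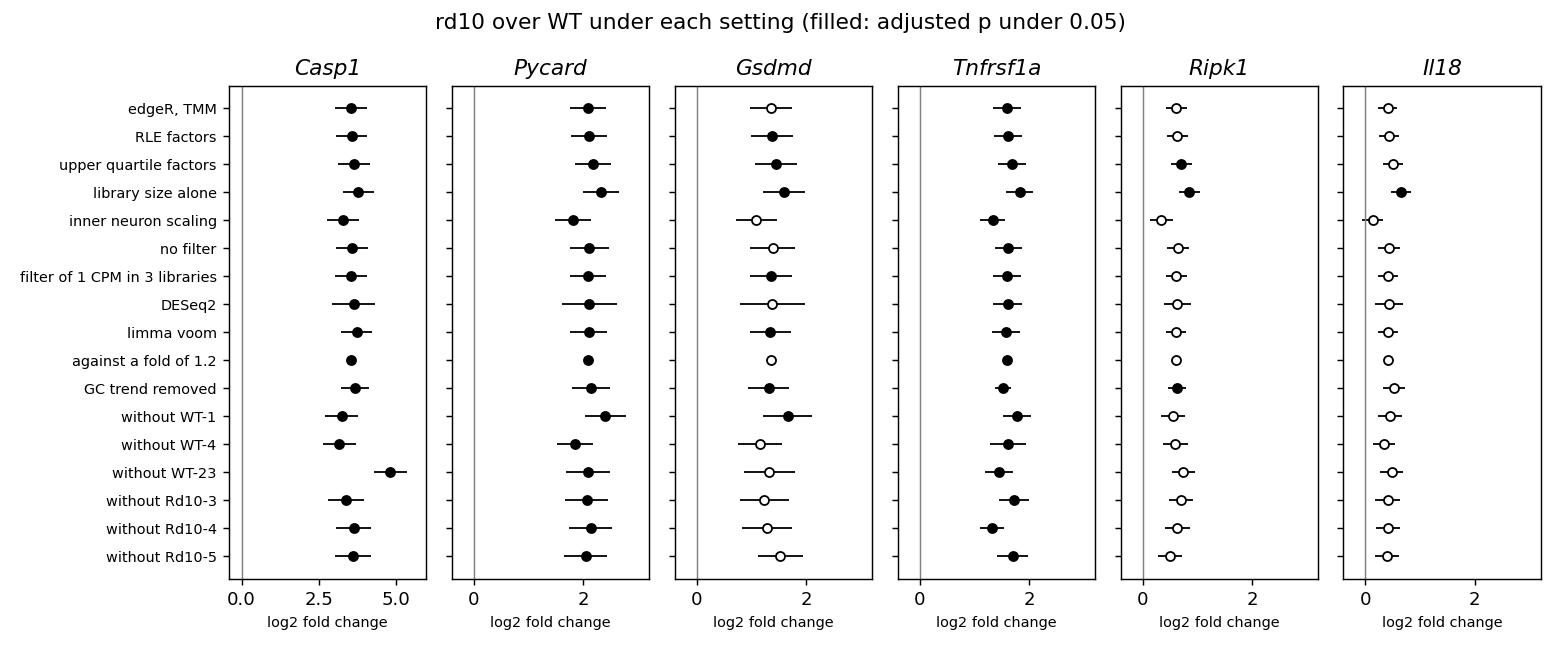
Log2 fold change of rd10 over WT with its SE (x axis, wider for Casp1) for the 6 tested genes under each setting (y axis); filled points had an adjusted p under 0.05, library size alone means unscaled library sizes, and the test against a fold of 1.2 has no SE. Casp1, Pycard and Tnfrsf1a are filled in every row, Gsdmd in 7, Ripk1 in 3 and Il18 in 1, and all values lie above 0.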

How the data were processed

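Strand-marked libraries were made from 1 µg of total RNA, per the labels' protocols. The authors deposited whole-number counts per gene, not normalized, in 6 library columns whose numbers match no sample title, so columns were assigned to groups by name. TopHat2 2.1.0, HTSeq and edgeR are named with mm10 in the submitters' processing notes, which give no role or order and no annotation. The authors also deposited a p-value, a log2 fold change and the FPKM of either group for each of 3427 selected genes, per the file headers; 3 of the 10 genes described are among them, and every gene listed has a p under 0.05 and reaches an FPKM of 2 in a group.

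WT libraries totalled 13573035 to 15818918 counts and rd10 libraries 10923556 to 12171088, with TMM factors of 0.902 to 0.933 and 1.08 to 1.10. Pairs within a group had a chi-square per degree of freedom of 7.58 to 60.3, more than sampling noise gives. After filterByExpr, edgeR 4.0.16 in R 4.3.3 compared the groups by a robust quasi-likelihood test with TMM factors and genotype alone, Benjamini-Hochberg adjusted over 13905 genes; it was tested on simulated data. Alternatives used limma 3.58.1, DESeq2 1.42.0, other factors, filters and a GC trend from GENCODE M21 transcripts. Errors are SEs of that fit or SDs of TMM-scaled CPM.

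The 10 genes and all lists were chosen with earlier results of these data known. Named were the 10, up to 6 called genes per list by p, the 2 most abundant uncalled ones, and genes completing a count. The 8 marker lists give counts and sums. Called higher were 1 of 14 endothelial and pericyte genes and 4 of 5 tested astrocyte genes, against 7.12% of all tested genes. Aqp4, which rose, is in both the astrocyte and the Müller glia list. Called lower were 3 of 10 tested pigment epithelium genes, against 7.32%, and the 1 tested red blood cell gene was not called.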

Additional observations from a re-analysis of the deposited data

How the results depend on the processing

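The median change over all tested genes shifted from its TMM value by 0.239 (log2) with unscaled library sizes and by -0.27 with inner neuron scaling. None of the 1200 gene values recomputed under 16 alternatives turned direction with a call, 36 lost a call and 51 gained one. Called genes numbered 2008, and 3043 with unscaled library sizes, 3763 with inner neuron scaling, 1285 against a fold of 1.2, 4719 with the GC trend removed and between 880 and 3153 without 1 library. The higher share of calls was 49.3%, 81.2% with unscaled library sizes, 63.3% with upper quartile factors and 17% under inner neuron scaling. Of the 10 genes, 5 were called higher with upper quartile factors, 6 with unscaled sizes and 5 with the GC trend removed. With unscaled library sizes the IL-1 family had 8 higher calls, the TNF receptor complexes 4 higher and 1 lower, and the gasdermin list 2 higher. With inner neuron scaling the IL-1 family had 2 higher calls, and lower calls were 5 in the TNF receptor complexes, 2 in the gasdermin list, 2 in the inflammasome sensor list and 4 in the other necroptosis inputs. With the GC trend removed the gasdermin list had 1 higher call, and lower calls were 6, 1, 1 and 2 in the same lists. Against a fold of 1.2 the TNF receptor complexes had 1 lower call. Leaving out 1 library gave 1 to 5 higher calls in the IL-1 family, 0 to 1 in the gasdermin list, and lower calls of 1 to 4 in the TNF receptor complexes, 0 to 1 in the inflammasome sensors and 0 to 1 in the other necroptosis inputs. The cause of these shifts was not tested. No paired analysis was possible because the count columns carry no replicate number of the labels. Depth limits Nlrp3, Casp4, Ripk3 and Mlkl, for which 3 counts in a library are 0.203 to 0.256 CPM.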
